A study of Mus musculus with 6 samples.

Results

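The regions described here are 1 Mb stretches of the mouse genome with unusually many peaks of histone H3 phosphorylated at serine 10 (H3S10p). They were selected on measured values: chromosomes 1 to 18 except 11 were cut into fixed 1 Mb windows of the mm9 build, each peak was placed by its midpoint, and a window was kept where the peaks of both libraries summed to 40 or more. Of 2243 windows, 72 (3.21%) were kept, and their members were 3661 of the 20345 peaks on these chromosomes. Library 1 gave 1734 of its 9631 peaks to them and library 2 gave 1927 of its 10714 (17.99%), nearly the same share. Counts per window, their neighbours and anything that follows from density are therefore descriptions of the choice. Peak width and score took no part in the rule. Recurrence did not enter it directly, but it is not independent of it, because a locus called in both lists adds to the sum from each.

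Both ChIP-seq libraries came from embryonic stem cells of the mouse strain 129P2/Ola, which were held in aphidicolin for 20 hours and then released for 3 hours. Aphidicolin stops replicative DNA polymerases, so cells gather at the start of DNA synthesis and move on together once it is removed. Chromatin of fixed cells was cut to fragments about the size of a single nucleosome and precipitated with the antibody ab14955. The series also holds 2 untreated RNA libraries and 2 from cells given ZM-447439 for 48 hours, which were not used for these regions. Nothing in the labels says whether the ChIP libraries came from separate cultures, and the identity of the cells was not checked, since peak lists carry no marker levels. With 1 ChIP group of 2 libraries there was no group to test against and both libraries took part in the choice, so no p-value is given. The intervals below cover counting error only, neighbouring peaks are not independent, and read depth per library is unknown from peak lists.

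H3S10p is best known as a mark of dividing cells. Aurora B places it on chromosomes before and during mitosis, beginning in the heterochromatin around the centromeres and spreading along the arms, and phosphatases remove it as cells leave mitosis. In interphase the same residue is also phosphorylated by other kinases at restricted sites, among them genes that are being induced. The mark next to lysine 9 can loosen the binding of heterochromatin protein HP1 to that tail.

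Peaks in the dense windows were plentiful in both libraries. Library 1 had from 16 to 47 peaks in them (median 23) and library 2 from 16 to 59 (median 25), against medians of 2 and 3 over all windows. Most sums were close to the threshold: the median was 47.5, 32 windows reached 50, 11 reached 60 and 4 reached 80. A window is named here by its chromosome and its span, so that 79 to 80 Mb stands for bases 79000001 to 80000000, counted from 1, and its counts are given for library 1 and then library 2. The largest sum was on chromosome 10, where 79 to 80 Mb held 39 and 59 peaks and 80 to 81 Mb held 47 and 45. On chromosome 7, 52 to 53 Mb held 44 and 44, and on chromosome 17, 27 to 28 Mb held 35 and 52. These 4 windows stood well apart from the rest.

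The next largest was chromosome 17, where 56 to 57 Mb held 31 and 34. A sum of 63 was reached on chromosome 13, where 55 to 56 Mb held 35 and 28, and on chromosome 9, where 21 to 22 Mb held 26 and 37. On chromosome 7, 25 to 26 Mb held 32 and 30, and on chromosome 4, 140 to 141 Mb held 26 and 35. Windows with a sum of 60 were chromosome 17 from 46 to 47 Mb (30 and 30) and chromosome 7 from 29 to 30 Mb (27 and 33). Below these, sums ran down to the threshold in small steps. There were 7 windows with a sum of 40, 7 with 41, 5 with 39 and 4 with 38. Just inside, chromosome 6 from 125 to 126 Mb held 19 and 21 peaks and chromosome 8 from 108 to 109 Mb held 17 and 23. Just outside, chromosome 5 from 124 to 125 Mb held 19 and 20, and chromosome 16 from 17 to 18 Mb held 21 and 18.

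**Figure D1:**
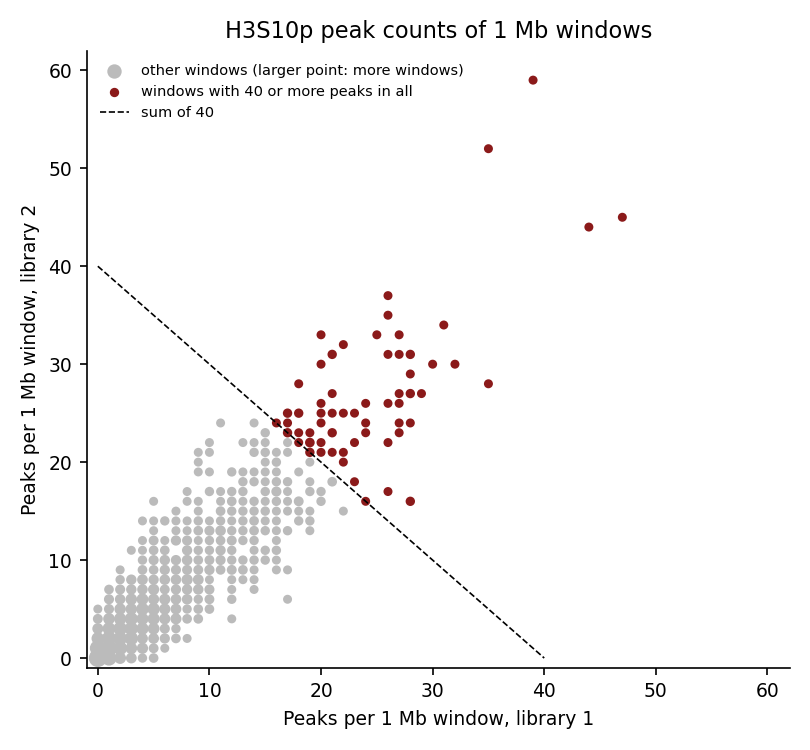
Peaks per 1 Mb window in library 1 (x axis) and library 2 (y axis), with the 72 windows of 40 or more peaks in dark red, all other windows in grey, and a dashed line at a sum of 40. A single point can stand for several windows, and its size grows with their number. The 4 windows with sums over 80 lie apart at the upper right, and no window is dense in 1 library and near 0 in the other.

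The libraries gave the dense windows similar weight. Library 2 supplied 52.6% of their peaks (exact binomial 95% interval 51.0 to 54.3%) and 52.7% of the peaks on all chromosomes used. It had more peaks than library 1 in 46 windows, fewer in 20 and as many in 6. The share of library 2 differed from 52.7% beyond its exact binomial interval in 2 of the 72 windows (2.78%), both of which leaned to library 1. In windows with 20 to 39 peaks, 2 of 227 (0.881%) did so, and 2.78% is no more than 95% intervals miss on their own. They were chromosome 12 from 109 to 110 Mb and chromosome 15 from 101 to 102 Mb, each with 28 and 16 peaks (36.4%, 22.4 to 52.2%). The strongest lean to library 2 was on chromosome 4, where 151 to 152 Mb held 20 and 33 (62.3%, 47.9 to 75.2%).

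Each library was also used alone to choose windows, with the count read in the library that had no part in the choice. Library 1 had 20 or more peaks in 63 windows (2.81% of all), and library 2 reached 20 in 50 of these, or 79.4%, against 3.97% of all windows. In those 63 windows library 2 held from 15 to 59 peaks (median 25). Library 2 had 20 or more peaks in 89 windows (3.97%), and library 1 reached 20 in the same 50, or 56.2%, against 2.81% of all windows. Library 1 held from 9 to 47 peaks there (median 20).

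Dense windows lay on 15 of the 17 chromosomes, and chromosomes 14 and 18 had none, with highest sums of 36 and 24. Chromosome 17 had the largest part of its windows among them, 10 of 93 (10.8%), followed by chromosome 8 with 9 of 128 (7.03%), chromosome 7 with 9 of 150 (6%), chromosome 15 with 6 of 101 (5.94%), chromosome 2 with 10 of 179 (5.59%) and chromosome 4 with 8 of 153 (5.23%). Chromosomes 1, 12, 13 and 16 had 1 each. Chromosome 10 had only 2, although they were the largest pair by sum. When each chromosome was divided into 3 equal parts from its first to its last window with a peak, 20 dense windows lay in the part nearest the centromere, 17 in the middle and 35 in the part nearest the other end. The one nearest to the first window was 15 Mb from it, while on chromosome 15 a dense window lay 1 Mb from the last.

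Many dense windows touched each other. The 72 windows formed 47 runs, of which 28 were single windows, 15 were pairs, 2 were runs of 3 and 2 were runs of 4, so 44 windows (61.1%) had a dense neighbour. On chromosome 2 a run from 30 to 34 Mb held 101 peaks in library 1 and 110 in library 2. Its windows held 24 and 23, 26 and 31, 28 and 31 and 23 and 25 peaks, so the counts were level along the run. Chromosome 8 had the other run of 4, from 122 to 126 Mb, with 87 and 102 peaks. There the windows held 21 and 31, 22 and 25, 24 and 24 and 20 and 22, again with no window standing out.

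A run of 3 on chromosome 5, from 120 to 123 Mb, held 52 and 74 peaks, and library 2 was ahead in each of its windows (18 and 25, 16 and 24 and 18 and 25). Chromosome 17 carried a run from 27 to 30 Mb with 70 and 97 peaks, and it was uneven: after the window with 35 and 52, the next held 18 and 22 and 17 and 23. The pair with the most peaks was that on chromosome 10 from 79 to 81 Mb, with 86 and 104. On chromosome 17 there were 3 further pairs, from 24 to 26 Mb (55 and 54), from 34 to 36 Mb (54 and 46) and from 46 to 48 Mb (53 and 52). On chromosome 8 the pairs spanned 73 to 75 Mb (55 and 54) and 86 to 88 Mb (50 and 47). These pairs were balanced between the libraries, whereas that on chromosome 9 from 20 to 22 Mb held 48 and 69. Runs on one chromosome were often near each other: 15 of 32 gaps between them were 5 Mb or shorter, with a median of 8.5 Mb and a range of 1 to 118 Mb. On chromosome 7, windows at 25 to 26, 28 to 30 and 31 to 32 Mb followed each other closely, and on chromosome 4 the same was true of 134 to 135, 137 to 138 and 140 to 142 Mb.

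The edges of the runs ranged from empty to nearly dense. The 94 flanks of the 47 runs, where a window between neighbouring runs counts for each, held a median of 20.5 peaks in both libraries together, 48 of them had 20 or more, 27 had 10 to 19 and 19 had under 10. All 9 windows with 38 or 39 peaks adjoined a dense window, as did 27 of the 82 windows with 30 to 39 (32.9%) and 89 of all 2171 windows under 40 (4.10%). Other edges were abrupt. On chromosome 9 the window before 20 Mb held 0 peaks in either library and the next held 22 and 32. On chromosome 7 the window before 25 Mb held 1 peak in all, beside 32 and 30, and the window after 21 Mb held 0, beside 19 and 21. On chromosome 17 the window before 56 Mb held 2 peaks in all, beside 31 and 34, and the densest window of chromosome 10 followed one with 6.

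Averaged over runs, the counts fell to under 12 peaks per library within 1 Mb and then declined slowly. Dense windows held 24.1 ± 6.06 peaks in library 1 and 26.8 ± 7.41 in library 2 (mean ± SD over 72 windows). The first windows outside held 10.1 ± 5.96 and 11.5 ± 6.51 (SD over 94 flanks), and those 5 Mb away 5.78 ± 5.29 and 6.52 ± 6.03 (79 windows). At 10 Mb the means were 4.39 ± 4.99 and 4.98 ± 5.74 (80 windows), compared with 3.64 ± 4.15 and 4.05 ± 4.55 over all 2171 windows under 40. The SD between windows was below the mean at 1 and 5 Mb and above it at 10 Mb.

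**Figure D2:**
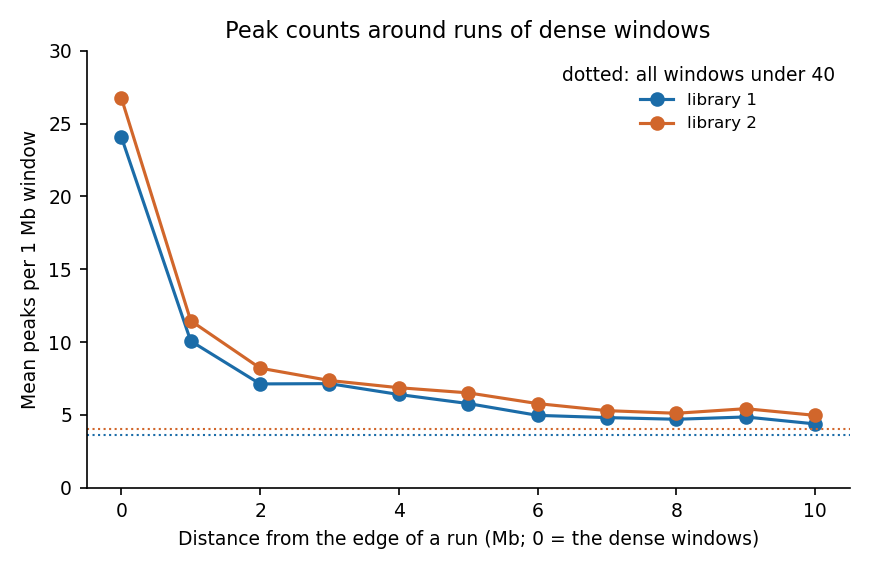
Mean number of peaks per 1 Mb window (y axis) against the distance in Mb from the edge of a run of dense windows (x axis, with the dense windows themselves at 0), for library 1 in blue and library 2 in orange. Windows that are dense in their own right are left out beyond 0, and dotted lines give the mean of all windows under 40. The curves drop from 24.1 and 26.8 to 10.1 and 11.5 within 1 Mb and stay slightly above the dotted lines at 10 Mb.

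Inside a window peaks were found along most of its length, and the occupied length grows with the count that chose the windows. When each window was cut into 10 bins of 100 kb, library 1 had a peak in a median of 8.5 bins (from 5 to 10) and library 2 in a median of 9 (from 5 to 10). Every bin held a peak in 13 windows for library 1 and in 24 for library 2. The most compact example was chromosome 7 from 20 to 21 Mb, where each library had its peaks in 5 of the 10 bins and library 2 had 10 of its 21 in a single bin. Chromosome 10 from 79 to 80 Mb was the opposite, with peaks in every bin and at most 6 in any bin of library 1 and 8 in library 2.

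An index of concentration that does not grow with the number of peaks (Morisita's index over the 10 bins, 1 where peaks are scattered evenly at random) had a median of 1.12 in library 1 and 1.11 in library 2 over the 72 windows. In windows with 20 to 39 peaks the medians were 1.18 and 1.15. The index was above 1 in 50 of the 72 dense windows (69.4%) in each library, near the 67.4% and 68.3% of windows with 20 to 39 peaks. The interquartile range of the dense windows, 0.98 to 1.34 in library 1 and 0.953 to 1.31 in library 2, included 1 and lay within that of the windows with 20 to 39 peaks in library 1, 0.897 to 1.56. The corresponding index between the lists, which is above 1 where both libraries use the same bins, had a median of 1.25 and was above 1 in 70 of 72 windows. Its exceptions were the densest window of chromosome 10 (0.987) and that of chromosome 7 from 52 to 53 Mb (0.997). With recurring peaks left out the median was 1.18, and 54 windows (75%) were above 1. In windows with 20 to 39 peaks these medians were 1.43 and 1.25, with 95.2% and 72.7% of windows above 1, so the dense windows were near the share elsewhere. These indices were chosen after the data were seen.

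Peaks in dense windows were somewhat narrower than elsewhere. In library 1 their median width was 297 bp (95% order-statistic interval 283 to 312) against 328 bp (321 to 334) in all other windows, and in library 2 it was 272 bp (261 to 283) against 300 bp (294 to 305). The mean difference of -29.5 bp shrank to -15 bp with the window grid shifted by 0.5 Mb (-11 bp in library 1 and -19 bp in library 2), to -18 bp against windows with 20 to 39 peaks and to -18.25 bp within chromosomes. The intervals on the original grid did not overlap in either library, although the distributions did: the interquartile range was 210 to 465 bp in dense and 219 to 485 bp in other windows of library 1, and 203 to 447 and 207 to 464 bp in library 2. Windows with 20 to 39 peaks were between, at 319 and 286 bp, and windows with 1 to 19 peaks were widest, at 332.5 and 306 bp. Wide peaks were fewer as well. Of the dense-window peaks, 8.13% (Wilson 95% interval 6.94 to 9.51%) in library 1 and 8.25% (7.10 to 9.56%) in library 2 were wider than 658 and 636 bp, the limits of the widest 10% of each whole list. In all other windows the shares were 10.4% (9.72 to 11.1%) and 10.3% (9.71 to 10.99%), so the intervals did not overlap. In windows with 20 to 39 peaks they were 10.6% (9.56 to 11.8%) and 10.3% (9.27 to 11.3%). These intervals were barely apart from those of the dense windows in library 1 and overlapped them in library 2. The widest peaks of the dense windows measured 1718 and 1428 bp. In windows with 20 to 39 peaks the widest measured 2740 bp in each library, and over all windows under 40 they measured 5969 and 3828 bp. A maximum grows with the number of peaks, and the dense windows held fewer.

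Close neighbours in the same list were counted too. Peaks with another of the same list within 1 kb made up 2.54% (1.90 to 3.39%) of the dense-window peaks in library 1 and 2.70% (2.06 to 3.52%) in library 2, against 1.67% (1.41 to 1.98%) and 2.47% (2.17 to 2.82%) elsewhere. Joining such peaks left 69 of the 72 windows at 40 or more. Leaving them out gave a width difference of -28.5 bp (mean of the libraries), beside -29.5 bp with all peaks. Whether broader domains were called in pieces was not tested.

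The direction was not shared by every window or chromosome. Of the 72 windows, 46 had a median width below the 322 bp of all library 1 peaks on these chromosomes and 43 below the 295 bp of library 2, and 31 were below in both. Within chromosomes, dense windows had the smaller median in 10 of 15 in library 1 and 10 of 15 in library 2, in 7 in both libraries and in 2 in neither. By the median over both libraries together, the narrowest peaks were on chromosome 8 from 123 to 124 Mb (203 bp, or 203 and 206 bp by library). The widest by that measure were on chromosome 8 from 73 to 74 Mb (393 bp, or 452.5 and 364 bp by library). In some windows the libraries differed: on chromosome 13 from 55 to 56 Mb the medians were 245 and 432.5 bp, and on chromosome 3 from 89 to 90 Mb they were 457 and 273 bp. Windows dense by the other library alone gave 301 bp against 327 bp in library 1 and 282 against 297 bp in library 2, so a difference of the same sign but smaller in size was seen where a library had no part in choosing its windows.

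Scores, as the authors' peak caller wrote them, were slightly lower in dense windows in library 1 and hardly different in library 2. The score scale is not named in the files, and values are compared within a list only. The median in library 1 was 64.6 (order-statistic interval 64.2 to 65.4) against 66.3 (66.0 to 66.3) elsewhere, and in library 2 it was 66.23 (66.15 to 67.63) against 67.13 (66.27 to 67.79), with overlapping intervals. Against windows with 20 to 39 peaks the difference was -1.71 in library 1 and 0.08 in library 2, so its sign turned in library 2. A limited set of values recurs in these lists, the most common 20 making up 32.4% and 33.7% of the scores in dense windows, so a median can move in steps. Within chromosomes the median was lower in dense windows in 11 of 15 in library 1 and 9 of 15 in library 2.

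At the upper end of the scale the dense windows held few peaks. Only 1 peak of library 1 and 2 of library 2 in the dense windows scored over 150, which was 0.0577% (Wilson interval 0.0102 to 0.326%) and 0.104% (0.0285 to 0.378%). Elsewhere on these chromosomes 37 peaks in either library did so, at 0.469% (0.340 to 0.645%) and 0.421% (0.306 to 0.580%). The interval in library 1 lay below that elsewhere, and in library 2 the intervals overlapped. In windows with 20 to 39 peaks, 8 peaks of each library scored over 150. Their shares were 0.268% (0.136 to 0.528%) in library 1 and 0.245% (0.124 to 0.483%) in library 2. These intervals overlapped those of the dense windows in both libraries. The highest scores of the dense windows were 155 in library 1, on chromosome 2 from 165 to 166 Mb, and 164 in library 2, on chromosome 8 from 73 to 74 Mb, compared with 2299 and 2322 elsewhere. The highest score of a window had a median of 102 in library 1 and 110 in library 2. Leaving out all peaks over 150 changed none of the 72 windows.

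**Figure D3:**
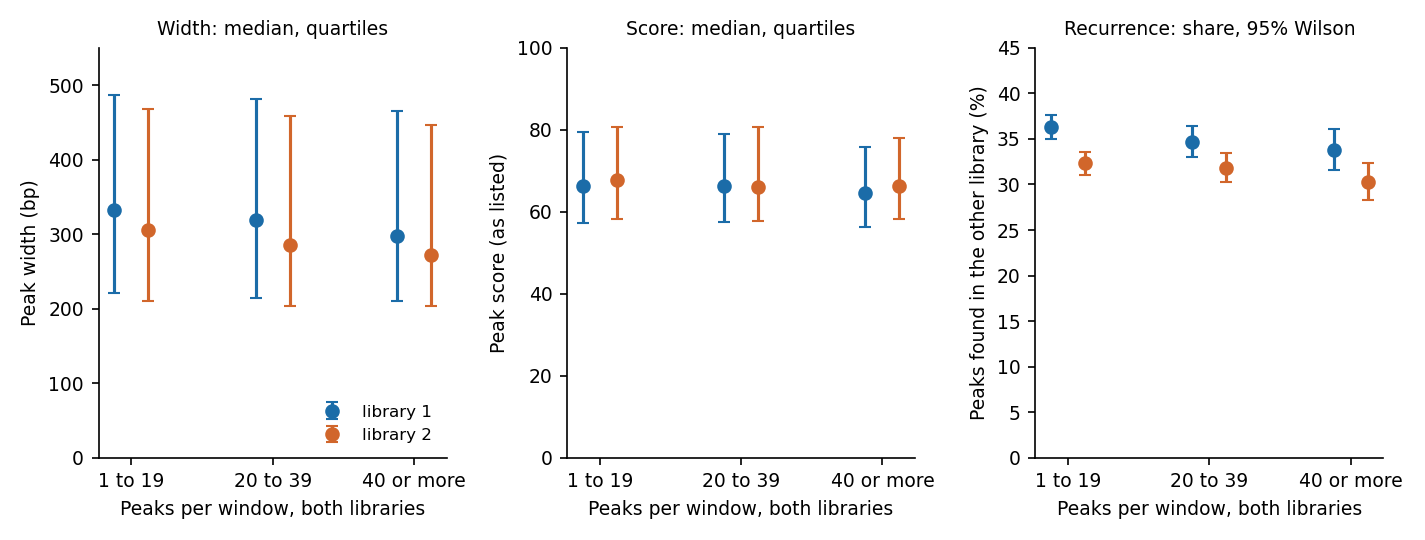
Width in bp (left), listed score (middle) and share of recurring peaks in percent (right) for windows with 1 to 19, 20 to 39 and 40 or more peaks (x axis), with library 1 in blue and library 2 in orange. Points are medians with quartiles for width and score, and shares with 95% Wilson intervals for recurrence. Median width goes down from 332.5 to 297 bp in library 1 and from 306 to 272 bp in library 2, while the shares differ by a few percentage points.

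Recurrence, meaning that a peak overlapped a peak of the other list by at least 1 bp, was about as frequent in dense windows as elsewhere. In library 1, 586 of 1734 dense-window peaks recurred (33.8%, Wilson 95% interval 31.6 to 36.1%), against 35.7% (34.6 to 36.7%) in other windows. In library 2 it was 584 of 1927 (30.3%, 28.3 to 32.4%) against 32.1% (31.1 to 33.1%). The difference was -1.89 percentage points in library 1 (Newcombe 95% interval -4.32 to 0.60) and -1.81 in library 2 (-4.05 to 0.49), so neither interval excluded 0. The other list covered 0.931% of the bases of the dense windows from the side of library 1 and 0.876% from that of library 2, compared with 0.148% and 0.140% in other windows. Thus the share of recurring peaks was no higher although the other list covered several times more of the sequence.

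The comparison was repeated with windows chosen by the other list, which is also the list that supplies the matches. This choice is therefore not independent of recurrence. When the windows were chosen by the other library alone, 35.3% (33.2 to 37.5%) of library 1 peaks recurred in the 89 chosen windows and 35.4% (34.3 to 36.4%) in the rest. For library 2 the shares were 32.0% (29.8 to 34.3%) in the 63 chosen windows and 31.8% (30.8 to 32.7%) in the rest. The small deficit was not seen under this choice, which cannot decide whether it holds for windows chosen without either list.

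Narrow peaks recurred less often than wide ones inside dense windows as elsewhere. Each list was divided by width into 4 equal groups. In library 1 the shares recurring in dense windows were 16.5%, 28.2%, 43.3% and 51.8% from the narrowest to the widest group, against 15.9%, 28.1%, 41.6% and 56.1% in other windows. In library 2 they were 13.2%, 24.4%, 35.8% and 52.0%, against 13.3%, 24.4%, 38.9% and 51.0%. The Wilson intervals of dense and other windows overlapped in each of the 8 comparisons. Recurring peaks in dense windows had median widths of 406 and 409 bp, and those called in a single library 251 and 242 bp.

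**Figure D4:**
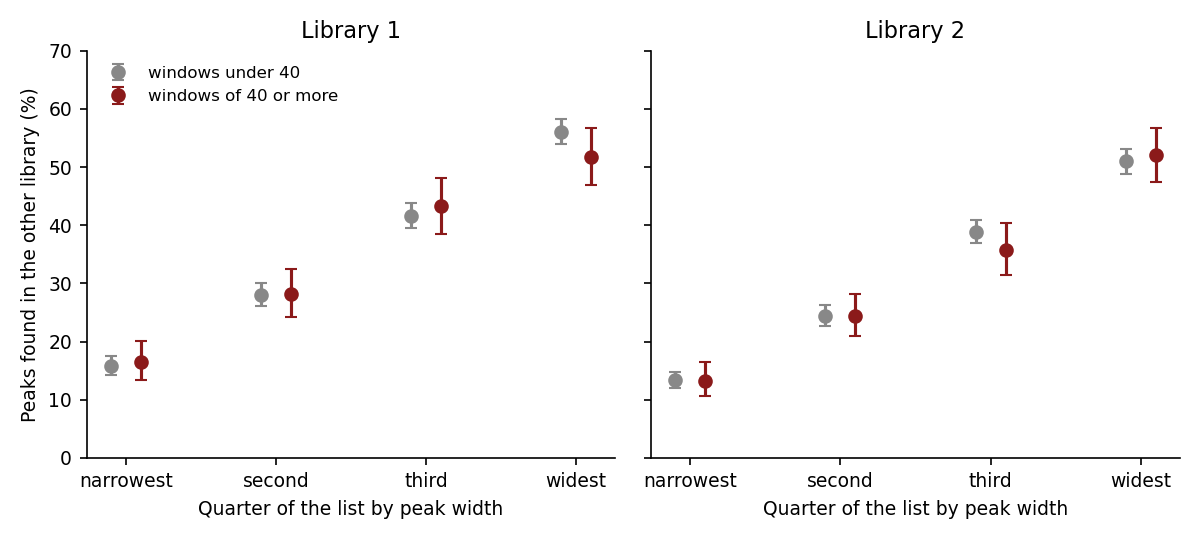
Share of recurring peaks, in percent (y axis), in 4 equal groups of each list by width (x axis), for windows of 40 or more peaks in dark red and for windows under 40 in grey, with 95% Wilson intervals. In both libraries the share climbs with width, from 16.5% to 51.8% and from 13.2% to 52.0% in dense windows, and the red and grey intervals overlap in every group.

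With a wider definition of recurrence the groups separated. A peak of the other list lay within 10 kb of 67.4% (65.1 to 69.5%) of dense-window peaks in library 1 and 63.4% (61.2 to 65.5%) in library 2, against 51.1% (49.98 to 52.2%) and 46.8% (45.8 to 47.9%) elsewhere. Within 1 kb the shares were still alike, at 38.1% and 34.4% in dense and 39.9% and 35.9% in other windows. For peaks without an overlap, the nearest peak of the other list was a median of 9.85 kb away in library 1 and 10.9 kb in library 2, against 35.4 and 39.7 kb elsewhere. More peaks per Mb bring the nearest one closer by themselves, so the distances beyond 1 kb are not independent of the choice of windows. Whether density alone accounts for them was not tested. The same limit holds within a list, where 40.7% (38.4 to 43.0%) and 45.6% (43.4 to 47.8%) of dense-window peaks had a neighbour within 10 kb, against 16.9% and 18.9% elsewhere.

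Single windows varied in recurrence more than the groups did. The share over both libraries ranged from 10% to 53.3% with a median of 32.0%, and it was below the 33.5% of all peaks on these chromosomes in 41 windows and above it in 31. The highest share was on chromosome 17 from 47 to 48 Mb, where 12 of 23 library 1 peaks recurred, and the lowest was on the same chromosome from 28 to 29 Mb, with 2 of 18. On chromosome 6, both 113 to 114 Mb and 125 to 126 Mb reached 50%. Low shares were found on chromosome 4 from 151 to 152 Mb (11.3%) and in the run of 4 on chromosome 8, where they were 19.2%, 21.3%, 12.5% and 23.8%. The densest window of all also recurred little, with 9 of its 39 library 1 peaks overlapping one of 59 in library 2, whereas its neighbour had 17 of 47. Each window has few peaks, and differences between single windows were not tested. Across the 72 windows, Spearman's rho with the number of peaks was -0.01 for recurrence and -0.02 for median width, and that between median width and recurrence was 0.27. These describe windows that share both libraries.

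**Figure D5:**
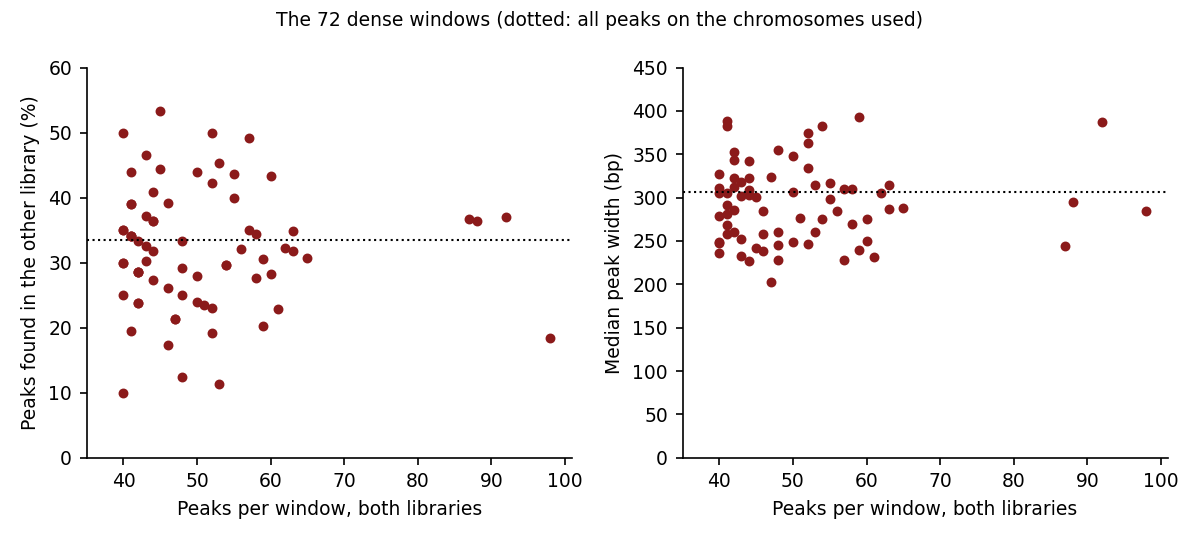
Share of recurring peaks in percent (left) and median peak width in bp (right), both over the peaks of the 2 libraries together, against the number of peaks in the window (x axis), with 1 point for each of the 72 dense windows. Dotted lines mark all peaks on the chromosomes used, at 33.5% and 307 bp. Points lie on both sides of both lines, and the window with 98 peaks has one of the lower shares, 18.4%.

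The best recurring pair of each of the 5 fullest windows, by the mean of both scores, is given here. On chromosome 10 it spanned 79138049 to 79138678 in library 1 (630 bp, score 102) and 79138351 to 79138660 in library 2 (310 bp, 55.7). In the neighbouring window it spanned 80493800 to 80494529 (730 bp, 91.0) and 80493757 to 80494459 (703 bp, 113). On chromosome 7 the pair was 52721977 to 52722228 (252 bp, 77.4) and 52721824 to 52722247 (424 bp, 108). On chromosome 17 the pair in the window with 87 peaks was 27173033 to 27173218 (186 bp, 81.3) and 27172999 to 27173187 (189 bp, 103), and in the window with 65 it was 56601094 to 56601743 (650 bp, 101) and 56601078 to 56601693 (616 bp, 79.5). None of these scores reached 150 in either library. Genes, base composition and mappability of the dense windows were not analysed here, and no input library was used, so whether the peaks reflect enrichment of H3S10p was not tested.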

How the data were processed

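Peaks were called by the authors with MACS in each ChIP library separately, per the file headers. The build is mm9 and Bowtie is named as a tool, per the submitters' processing notes. The version, threshold and control were not given in the sources used here. A score per peak was deposited by the authors without naming its scale, so scores were compared within a list only.

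Peak midpoints were placed into 1 Mb windows, from the first to the last window with a peak on a chromosome. Recurrence required an overlap of at least 1 bp. Shares have Wilson intervals, library shares exact binomial intervals, differences of shares Newcombe intervals and medians order-statistic intervals, all at 95%. No p-value was computed. Functions were tested on simulated peak lists. The software was SciPy 1.17.1, pandas 2.3.3 and NumPy 2.4.6 in Python 3.11.15, with matplotlib 3.10.9 for plots. The windows, comparisons and alternatives were chosen with earlier results of these data known. Windows named are the 10 with the largest sums (11 with a tie), runs of 3 or more, those next to the threshold and the extremes of recurrence, width and library balance, and other windows and pairs were named after their values were seen.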

Additional observations from a re-analysis of the deposited data

Results flagged for a closer look

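Windows of this density were also found on the chromosomes that the choice leaves out. On chromosomes 11 and 19 together, 15 of 178 windows held 40 or more peaks, 12 of 119 on chromosome 11 and 3 of 59 on chromosome 19, with highest sums of 68 and 62. They are given because peaks there took part in no comparison above. No control sample was analysed here.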

How the results depend on the processing

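The number of dense windows was 154 at a threshold of 30, 32 at 50, 192 with 0.5 Mb windows and a threshold of 20, and 31 with 2 Mb windows and a threshold of 80. By construction these thresholds and sizes change what can pass. The other settings gave 63 to 97, but not all of them at the threshold of 40. At 40, the grid shifted by 0.5 Mb gave 78. With overlapping peaks of both lists merged, a threshold of 30 gave 97. Library 2 or library 1 alone, at a threshold of 20, gave 89 and 63. Joining peaks within 1 kb and leaving out scores over 150 were added after seeing the data, as were distances of 1 and 10 kb and leaving out chromosomes. At a threshold of 20, the upper 50% of each list by score kept 52 of the 72 windows among 69 chosen, and the wider 50% kept 50 among 69. Runs numbered 83 at a threshold of 30 and 26 at 50, against 47.

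Differences between dense and other windows are means of the libraries. That in recurrence, -1.85 percentage points, was -1.44 at a threshold of 30, -1.28 at 50, -1.95 with the shifted grid, -1.19 against windows of 20 to 39 peaks, -1.10 within chromosomes, -0.14 when 50% of each peak had to overlap, -1.77 in the upper 50% by score, -0.51 within groups of width and -1.67 within 1 kb. It turned to 0.0912 when the other library, which also supplies the matches, chose the windows, and to 16.4 within 10 kb. Library 2 alone gave -3.43 and library 1 alone -2.28. There the list whose recurrence was read also chose the windows, at 20 or more of its own peaks. That choice is not independent of recurrence either. Leaving out each chromosome gave -2.52 to -1.30. The width difference, -29.5 bp, was -25.5 at 30, -24 at 50, -15 with the shifted grid, -18 against windows of 20 to 39 peaks, -18.25 within chromosomes and -20.5 when the other library chose, with -31 and -28 for single libraries and -31.5 to -25.5 without single chromosomes. The score difference, -1.305, was -0.815 against windows of 20 to 39 peaks, -0.72 within chromosomes, -1.19 and -1.465 for single libraries and -1.36 to -0.97 without single chromosomes. The difference in peaks with a neighbour, 25.2 percentage points at 10 kb, was 10.5 at 5 kb and 37.4 at 50 kb. The cause of these shifts was not tested. No paired analysis was possible because only 1 ChIP group was compared. Read depth is unknown from peak lists and limits which weak peaks could be called.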

Other observations

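The 72 dense windows contain 720 bins of 100 kb, of which 48 (6.67%) held no peak in either library and 81 held 10 or more in both together, with a median of 5. The fullest bin was on chromosome 7 from 20000001 to 20100000, with 7 peaks in library 1 and 10 in library 2, in a window that was itself only just dense. Bins with 16 peaks followed on chromosome 10 from 80800001 to 80900000 (9 and 7) and on chromosome 17 from 27400001 to 27500000 (8 and 8). Each of the latter adjoined a bin with 15 peaks. Over the 720 bins, Spearman's rho between the libraries was 0.56, as a description of bins that share windows and libraries.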
